A study of Mus musculus with 6 samples.

Results

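Snord15a and Snord15b are the mouse copies of the small nucleolar RNA (snoRNA) U15, and both lie in introns of Rps3, the gene of a small ribosomal subunit protein. They are 2 of the 1823 non-coding RNA features with a read in any library, and were found by matching the position of each feature to GENCODE release M21 on GRCm38. Both were listed in all 6 libraries, both passed the filter on low counts, and no other listed snoRNA lies inside Rps3. The pair was chosen with the values in view: among snoRNAs with a mean of at least 10 CPM (the read count scaled by the library total), Snord15a had the lowest ratio of knockout to wild type. The knockout comparison of these members is therefore given as a description, with no test.

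Libraries of snoRNA-sized RNA came from mouse bone marrow, named in the design text as lineage-negative (Lin-) cells, the fraction depleted of mature blood cells. The genotypes are labelled Mat KO, taken here as a mutation inherited from the mother, and wildtype, with 3 libraries each (KO and WT below). The series title places the study at the Dlk1-Gtl2 imprinted locus of chromosome 12. The extent of the deletion, the strain, the age of the mice and whether the libraries of a genotype came from separate animals are not stated in these sources, so tests measure only the spread between libraries, which may be technical.

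U15 is a C/D box snoRNA: short C and D boxes near its ends bind a shared set of proteins that includes the methyltransferase fibrillarin. A stretch next to a D box pairs with ribosomal RNA and selects the nucleotide that receives a 2′-O-methyl group, which for U15 is an adenosine of 28S rRNA. Snord15a and Snord15b have no promoter of their own: they are cut out of the introns of the Rps3 transcript, where assembly with the proteins protects them from the exonucleases that degrade the rest of the intron.

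The sequences show how far the copies have diverged and how much sequence their reads have in common. Both are given 5′ to 3′ as DNA from GENCODE M21, with the longest stretch shared by both, and the longest shared stretch before it, in capitals.
Snord15a: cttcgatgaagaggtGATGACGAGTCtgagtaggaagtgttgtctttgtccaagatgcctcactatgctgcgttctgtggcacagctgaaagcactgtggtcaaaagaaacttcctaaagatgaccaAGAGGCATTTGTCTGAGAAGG
Snord15b: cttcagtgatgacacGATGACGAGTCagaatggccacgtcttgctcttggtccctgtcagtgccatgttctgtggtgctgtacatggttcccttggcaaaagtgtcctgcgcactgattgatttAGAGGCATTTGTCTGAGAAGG

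The members are 148 and 145 nt long, and a global alignment had 107 identical positions of 162 columns (66.0%). The longest identical stretch, 21 nt, forms the 3′ end of both RNAs, at bases 128 to 148 of Snord15a and 125 to 145 of Snord15b. It contains CTGA, the letters of the D box, at bases 140 to 143 of Snord15a and 137 to 140 of Snord15b. An 11-nt stretch is shared at bases 16 to 26 of each. The ends are alike too, since the first 4 bases, CTTC, are the reverse complement of GAAG at bases 144 to 147 of Snord15a and 141 to 144 of Snord15b. TGATGA, letters that fit the C box, occurs once on the RNA strand of each member, at bases 15 to 20 of Snord15a, where it overlaps the 11-nt stretch, and at bases 7 to 12 of Snord15b, before it. Neither member has TGATGA on the opposite strand.

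The letters of the C box were uncommon among snoRNAs as long as these. Of the 188 other listed snoRNA features of 120 to 180 nt, 4.26% had TGATGA on the RNA strand (5.32% on either strand) and 53.2% had CTGA (80.9% on either strand). TGATGA in the first 25 bases together with CTGA in the last 25, as in both members, occurred in 3 of the 188 (1.60%) and in 136 of 206 snoRNA features of up to 100 nt (66.0%). U15 thus has the box letters common among the short snoRNAs and a length shared mostly by features without them. A match of letters is a description of the sequence and does not show a working box.

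Reads of the members have little room to be confused with each other or with other annotated transcripts. Sequence outside annotated transcripts was not searched. No stretch of 22 nt is shared between them, and of all GENCODE transcripts only the members themselves and 1 of the retained-intron transcripts of Rps3 share a 30-nt stretch with either on either strand. By blastn, the 21-nt stretch was the best match of each member to any other listed snoRNA. How reads with several matches were handled is not stated in these sources, and fragments of the shared end alone could not be assigned to 1 member.

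The host places the members far apart along 1 transcript. Rps3 covers chr7:99477896-99483738 (GRCm38, minus strand), and its main transcript, Rps3-201, has 7 exons. Snord15a (ENSMUSG00000065822.1, chr7:99482785-99482932, minus strand) lies in intron 1, which is 891 nt long, and ends 84 nt before exon 2. Snord15b (ENSMUSG00000064966.1, chr7:99479563-99479707, minus strand) lies in intron 5, which is 405 nt long, and ends 92 nt before exon 6. The distance to the downstream exon thus differed by only a few bases, while that from the upstream exon was 659 nt for Snord15a and 168 nt for Snord15b. Between the members are 3077 nt. Snord15b, but not Snord15a, is also contained in an exon of that retained-intron transcript.

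**Figure D1:**
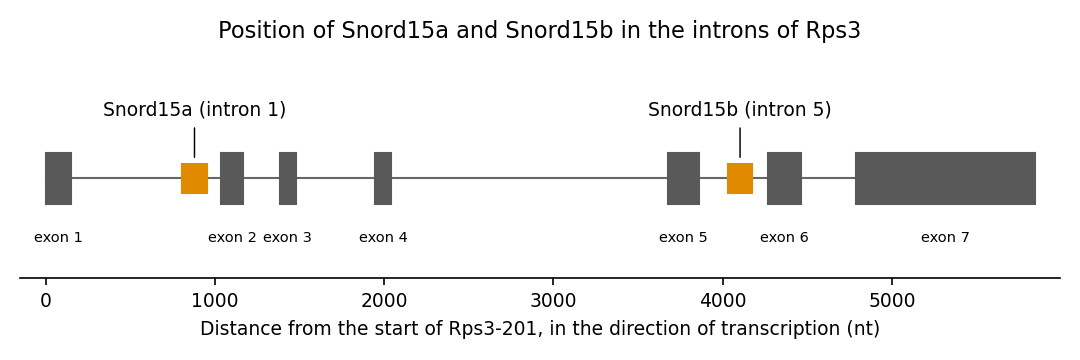
Map of Rps3-201 drawn to scale, with the distance from its first base in nt on the x axis, exons as grey boxes and the snoRNAs as orange boxes. Snord15a lies in intron 1 and Snord15b in intron 5.

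The libraries held 45398303 to 53299322 counts each. As a check of the labels, the 10 listed snoRNAs between Dlk1 and Dio3 together had 2 to 3 reads in each KO library and 87 to 106 in each WT library. Reads over precursors of haematopoietic miRNAs were found for 7 of 7 markers, with sums of 87.2 to 122 CPM in KO and 56.1 to 128 CPM in WT libraries. Of the erythroid markers, 2 of 3 were listed (0.657 to 1.68 CPM in sum) and Mir451a was at 0. Of 9 markers of other tissues, 6 were listed, with sums of 0.392 to 1.23 CPM in 5 libraries and 8.78 CPM in KO replicate 2, where the muscle miRNA Mir1a-1 led with 4.98 CPM. Mir124a-1, Mir124-1 and Mir375 were at 0.

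Snord15b was the abundant member in every library. KO replicates 1 to 3 gave it 69906, 56574 and 72766 reads, and WT replicates 1 to 3 gave it 67539, 64957 and 79125. Its levels were 1442, 1091 and 1538 CPM in the KO and 1267, 1431 and 1558 CPM in the WT libraries. The genotypes overlapped, with the lowest library in KO and the highest in WT only 1.43-fold apart. The means were 1357 ± 235 CPM in KO and 1419 ± 146 CPM in WT (SD, n = 3 each), a difference smaller than either SD. By mean level Snord15b ranked 45 among the 444 listed snoRNA features and 2 among the 190 of 120 to 180 nt, members included.

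Snord15a was rarer and differed more between libraries. KO replicates 1 to 3 held 1428, 1654 and 2231 of its reads, and WT replicates 1 to 3 held 14479, 2723 and 4449. Its levels were 29.5, 31.9 and 47.2 CPM in the KO and 272, 59.98 and 87.6 CPM in the WT libraries. Every KO library was below every WT library, but the nearest pair, KO replicate 3 and WT replicate 2, were 1.27-fold apart. WT replicate 1 stood far above the rest, 3.10-fold over the next highest library. The means were 36.2 ± 9.6 CPM in KO and 139.8 ± 115.1 CPM in WT (SD, n = 3 each). Without WT replicate 1 the WT mean was 73.8 CPM, and the ratio of WT to KO means went from 3.86 to 2.04.

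The same separation, every KO library below every WT library, was found for 78 of the 624 features tested (12.5%) and for 12 of the 175 snoRNA features of at least 10 CPM (6.86%). The reverse, every KO library above every WT library, was found for 17 (2.72%). Snord15a was chosen on this contrast, so nothing is read from its place among the 78. In bulk RNA such as this, fewer cells of a type and less RNA per cell cannot be told apart.

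**Figure D2:**
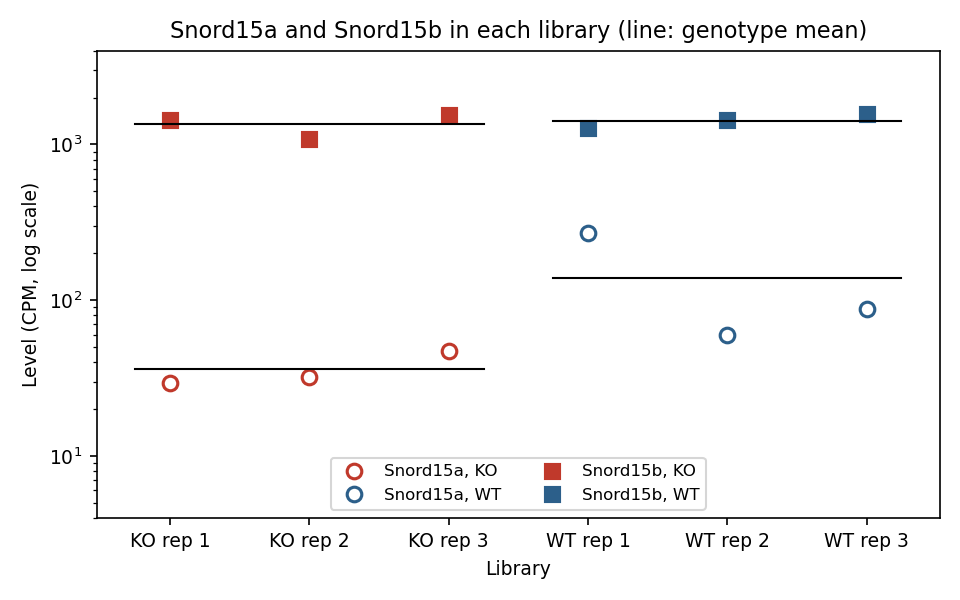
Level of Snord15a (open circles) and Snord15b (filled squares) in CPM on a log scale for each of the 3 KO (red) and 3 WT (blue) libraries, with genotype means as lines. Snord15b stays between 1091 and 1558 CPM, while Snord15a spans 29.5 to 272 CPM and is highest in WT replicate 1.

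Over all 6 libraries the levels of the members did not correlate. Their log2 levels had a Pearson r of 0.01 over the 6 libraries, a description of libraries that share their depth and preparation. WT replicate 1, the highest library for Snord15a, was the lowest WT library for Snord15b. The r was not taken without that library, so it need not hold for the others. Within genotypes the SD of the log2 level was 0.84 for Snord15a and 0.21 for Snord15b. Among the 59 other tested snoRNAs within 4-fold of Snord15a in level, the median of this SD was 0.36 (range 0.08 to 1.71) and 12 had a larger one. Among the 54 within 4-fold of Snord15b, the median was 0.18 (range 0.07 to 1.72) and 25 had a larger one. With all libraries Snord15a was thus more variable than most snoRNAs of its level, and Snord15b was near the middle of its own. The highest Snord15a level was 1.60-fold over the lowest within KO and 4.53-fold within WT, which holds WT replicate 1. This SD was not taken without that library, whose value also enters the contrast for which Snord15a was chosen.

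The high value of WT replicate 1 had no counterpart among abundant features. Of the 267 tested features with a mean of at least 10 CPM, Snord15a was the only one whose highest library was as much as 3.10-fold over the next. That cutoff is the value of Snord15a itself, and WT replicate 1 also enters the contrast for which it was chosen. Its standing alone among these features is therefore a description. Below 10 CPM it did not stand alone: Snora15 had 2.21 CPM in WT replicate 1 and at most 0.433 CPM in any other library, a larger gap at a far lower level. WT replicate 1 was the highest library for 75 of the 267, more than any other library. The sum of the haematopoietic miRNA markers was lowest in that library, at 56.1 CPM. Whether any of these bears on the Snord15a value was not tested.

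The ratio of the members within a library does not depend on how libraries are scaled. Snord15a made up 2.00% of the pair's reads in KO replicate 1 (95% Wilson interval 1.90 to 2.11), 2.84% in KO replicate 2 (2.71 to 2.98) and 2.97% in KO replicate 3 (2.86 to 3.10). In the WT libraries its share was 17.7% in replicate 1 (17.4 to 17.9), 4.02% in replicate 2 (3.88 to 4.17) and 5.32% in replicate 3 (5.17 to 5.48). These intervals allow for counting error alone: no molecular identifiers are recorded, and copies made by PCR are not independent. The 3 KO shares lay below the 3 WT shares, a separation that follows from the levels of the member chosen for its difference.

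**Figure D3:**
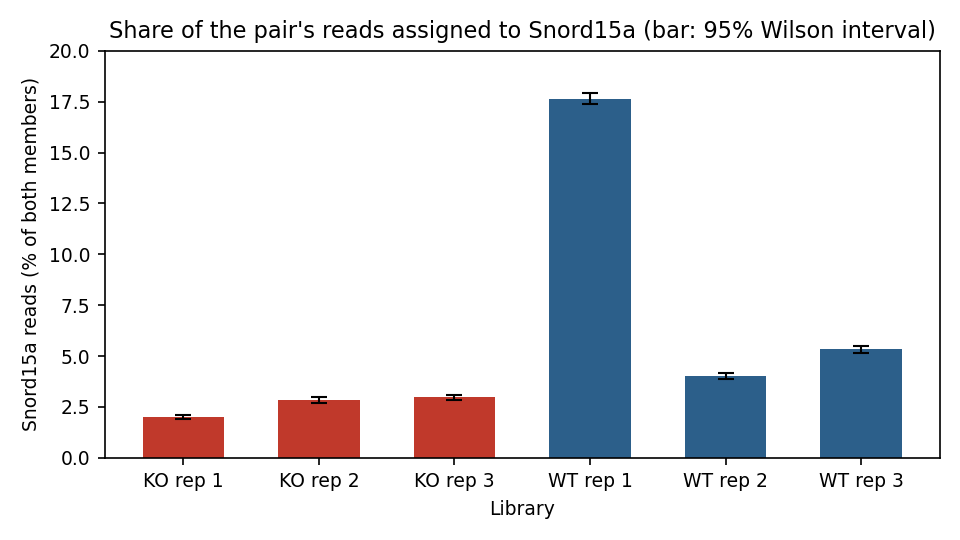
Share of the pair's reads assigned to Snord15a, in percent, for each library, with 95% Wilson intervals. The KO libraries lie between 2.00% and 2.97%, WT replicates 2 and 3 at 4.02% and 5.32%, and WT replicate 1 at 17.7%.

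Per length, the order of the members was the same in all 6 libraries. Snord15a had 24.4 CPM per 100 nt in KO and 94.4 in WT, and Snord15b 936 and 978 (means, n = 3 each). Snord15b exceeded Snord15a per length by 49.97-, 34.9- and 33.3-fold in the KO libraries and by 4.76-, 24.3- and 18.2-fold in the WT libraries (replicates 1 to 3). The highest Snord15a level of any library, 183.6 CPM per 100 nt, was below the lowest of Snord15b, 753. The pair's summed level was 1393 ± 241 CPM in KO and 1559 ± 79 CPM in WT (SD, n = 3 each). These overlapped, at 1123 to 1586 CPM and 1491 to 1646 CPM. Snord15b gave most of the reads of this sum in every library, so the sum largely repeats its level.

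The fit across all features, edgeR's quasi-likelihood model with TMM scaling, gave the same contrast on a log2 scale. The log2 fold change (KO over WT) was -1.89 (SE 0.57) for Snord15a, 0.00 (SE 0.15) for Snord15b and -0.10 (SE 0.14) for their sum. Without WT replicate 1 that of Snord15a was -0.89 (SE 0.29) and that of Snord15b 0.01 (SE 0.17). The mean log2 ratio of Snord15a to Snord15b was -5.25 in KO and -3.65 in WT, a difference of -1.60, or -0.88 without WT replicate 1. In every setting run Snord15a stayed lower in KO, the direction for which it was chosen. The sign for Snord15b depended on the scaling, at 0.10 with RLE size factors, -0.06 with library totals and 0.40 with factors from the snoRNAs of 120 to 180 nt. The median of all tested features moved with it, from -0.08 under TMM to 0.02, -0.16 and 0.33. Relative to that median, Snord15b lay 0.07 to 0.09 above it under these 4 scalings and Snord15a lay between -1.81 and -1.75.

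Just outside the choice were the snoRNAs of at least 10 CPM with the next lowest log2 fold changes. These were Gm23262 in Eif4g2 (-0.71, SE 0.29), Gm24451 in Nop56 (-0.57, SE 0.32) and Snora43 (-0.54, SE 0.32). Gm23262 had 17.4, 12.5 and 22.1 CPM in the KO and 38.8, 24.8 and 25.2 CPM in the WT libraries. All 3 are 133 to 168 nt long, close to Snord15a in size. Of the 175 snoRNAs at this level 94 had lower and 81 higher estimates in KO. Snord15b took place 91 from the lowest.

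**Figure D4:**
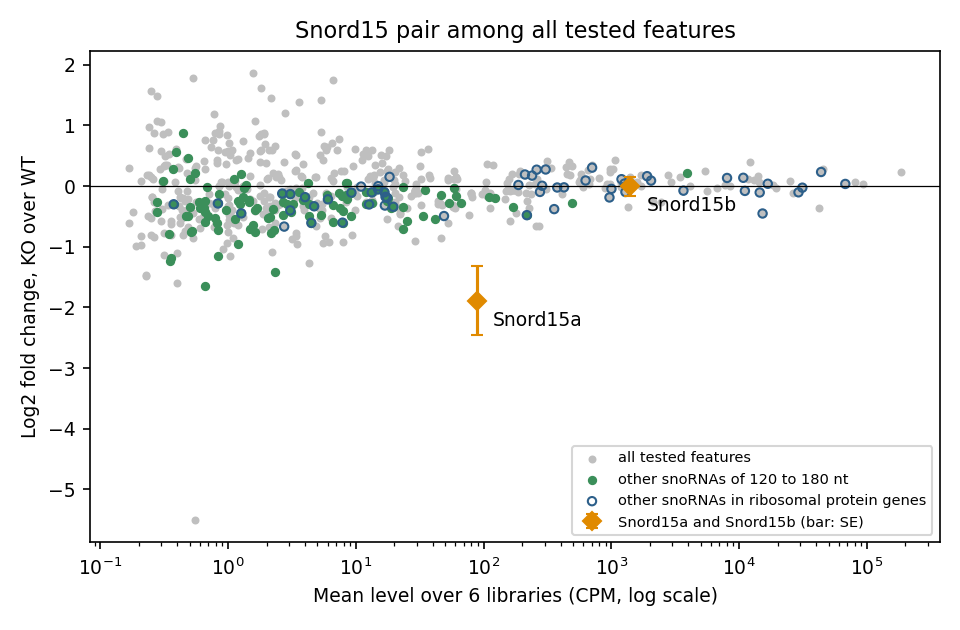
Log2 fold change (KO over WT) against mean level in CPM (log scale) for the 624 tested features, with other snoRNAs of 120 to 180 nt in green, other snoRNAs in ribosomal protein genes as blue circles, and Snord15a and Snord15b as orange diamonds with SE bars. Snord15a lies at -1.89 and Snord15b at 0.00.

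Other snoRNAs of ribosomal protein genes give the setting for a pair cut from 1 such transcript. Of 59 listed, 56 were tested. edgeR's quasi-likelihood test with Benjamini-Hochberg adjustment called none of them, nor did DESeq2, where 1 of all 624 features was called (0.16%). An unadjusted edgeR p under 0.05 was found for 2 of the 56, beside 40 of all 624. With TMM 38 had lower and 18 higher estimates in KO, beside 369 and 255 of all 624. The median log2 fold change was -0.10, beside -0.08 over all features. The split of the 56 depended on the scaling, with 24 lower and 32 higher by RLE size factors and 8 and 48 by factors from the snoRNAs of 120 to 180 nt. The most abundant were Snord68 of Rpl13 (66947 ± 11875 and 68367 ± 5397 CPM in KO and WT), Gm23301 of Rpl17 (46235 ± 2329 and 41247 ± 1344 CPM) and Gm23969 of Rpl7a (30158 ± 6819 and 32239 ± 998 CPM). Their log2 fold changes ran from -0.67 to 0.31, and 37 were below that of Snord15b.

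Among these genes, 12 other hosts held 45 pairs of tested snoRNAs that do not overlap, a comparison chosen after the data were seen, and pairs of 1 host share members. Unequal levels within a host were common: per length the more abundant member by CPM exceeded the other 6.31-fold in the median pair, against 16.1-fold for Snord15b over Snord15a, and 18 of the 45 pairs were at least as unequal. The shift of the ratio between genotypes had a median size of 0.14 on the log2 scale in these pairs and reached 0.73, for Snord100 against Gm23130 in Rps12. The 1.60 of the Snord15 members is carried by the genotype difference for which Snord15a was chosen, so its place among the pairs is no finding. Without WT replicate 1 the Snord15 value was 0.88 and that Rps12 pair, at 0.95, was larger. The Rps12 pair depended on a single library too: without KO replicate 2 it was at 0.28 and the Snord15 value at 1.67. Over the 6 libraries the log2 ratio of the Snord15 members spanned 3.39, against at most 2.73 in the other pairs. Without WT replicate 1 it spanned 1.46, and 5 other pairs spanned as much or more.

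**Figure D5:**
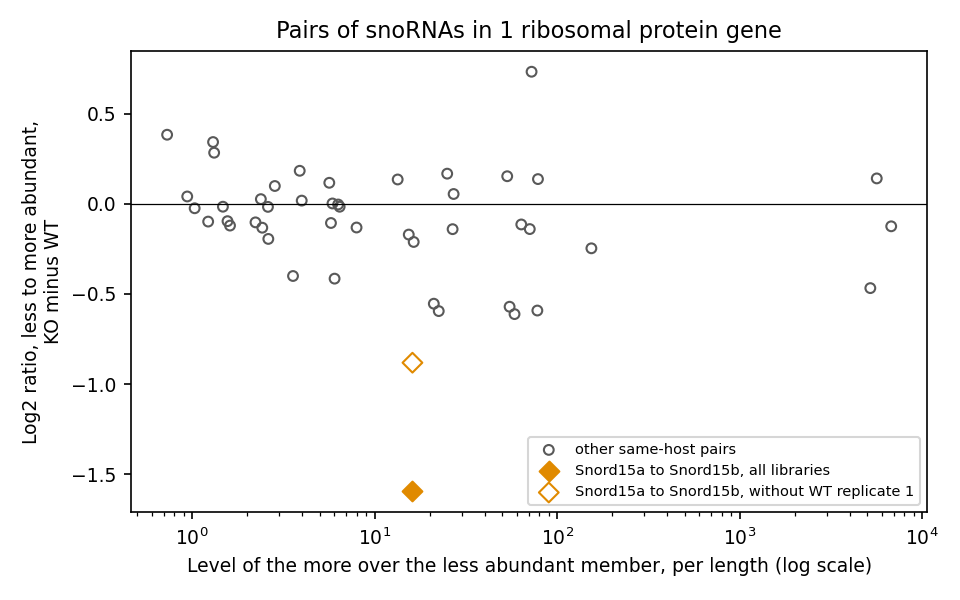
Each point is a pair of tested snoRNAs in 1 ribosomal protein gene, with the level ratio of the more to the less abundant member per length on a log x axis and the KO minus WT difference in log2 ratio on the y axis. The Snord15 pair lies at -1.60 (filled diamond) and at -0.88 without WT replicate 1 (open diamond), and the other 45 pairs, drawn with all libraries, are at most 0.73 from 0.

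RNA length is another property that the members share with many features. Of 188 other listed snoRNAs of 120 to 180 nt, mostly without the box letters of U15, 118 were tested and none was called by edgeR or DESeq2. An unadjusted edgeR p under 0.05 was found for 8 of the 118, a share near that of all features (40 of 624). With TMM 104 had lower and 14 higher estimates in KO, beside 369 and 255 of all 624. The median log2 fold change was -0.30. By RLE size factors 95 were lower and 23 higher, without KO replicate 2 the split was 75 lower and 47 higher, and with factors taken from this list itself it was 45 lower and 73 higher. The lowest log2 fold change was that of Snora15, at -1.65. The most abundant were Gm25117 in Nap1l1 (4100.4 ± 5189.7 and 3755 ± 2764 CPM in KO and WT) and Gm22884 in G3bp1 (433 ± 185 and 548 ± 78 CPM).

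KO replicate 2 was low for RNAs of this length, and the members can be set beside that. Relative to its mean over the 6 libraries, the log2 level of these 118 snoRNAs had a median of -0.56 in KO replicate 2, against -0.06 and -0.13 in the other KO and 0.30, 0.09 and 0.26 in the WT libraries. Snord15b was at -0.34 in KO replicate 2 and between -0.12 and 0.18 in the other libraries. Snord15a was at -1.10, -0.98 and -0.42 in the KO and at 2.10, -0.07 and 0.47 in the WT libraries. The part of RNA length in these differences was not tested. For Snord15a the log2 fold change was -1.74 without KO replicate 2, and -1.41 with factors taken from the snoRNAs of 120 to 180 nt.

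Guides of 28S rRNA methylation are the functional relatives of U15. By name 22 such features, Snord15 aside, were listed and tested, and neither edgeR nor DESeq2 called any. Features with a provisional symbol, such as a Gm name, in both GENCODE and RefSeq could not be matched, so the list may miss guides. An unadjusted edgeR p under 0.05 was found for 0 of the 22, beside 40 of all 624. With TMM 5 had lower and 17 higher estimates in KO, with a median of 0.04, while with library totals 13 were lower and 9 higher. Snord49a had 91380 ± 12122 and 93726 ± 5123 CPM, Snord21 of Rpl5 27410.1 ± 1316.1 and 30796 ± 3262 CPM, and Snord80 of Gas5 14183 ± 3418 and 14188 ± 2233 CPM (KO and WT, SD, n = 3 each). These 3 were named as the most abundant of the list, Snord80 by its feature of 81 nt. Another Snord80 feature, of 77 nt, is also among the 22, with a mean of 4124 CPM over the 6 libraries. The splits above therefore count this guide more than once. Snord15b was below the 3 named features but above others on the list, such as Snord37, with a mean of 967 CPM over the 6 libraries. Snord15a was at a lower level than Snord15b.

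The snoRNAs of pre-rRNA cleavage, among them U3, U8, U13 and U14, act on the same precursor in another way. Of 22 listed features 21 were tested, and neither edgeR nor DESeq2 called any. An unadjusted edgeR p under 0.05 was found for 0 of the 21, beside 40 of all 624. With TMM 14 had lower and 7 higher estimates, with a median of -0.07, and by RLE size factors 8 were lower and 13 higher. The split also moved with single libraries, to 17 lower and 4 higher without KO replicate 1 and to 3 and 18 without KO replicate 2. Without KO replicate 1 an unadjusted edgeR p under 0.05 was found for 12 of the 21, beside 121 of all 662 features then tested. Several are U3 copies that overlap or resemble each other, so their counts are uncertain. Rnu3b1 to Rnu3b4, each listed at both 215 and 216 nt, make up most of the features with lower estimates under TMM. Their log2 fold changes were all alike, from -0.05 to -0.12. The split and the median therefore count near-identical entries many times and do not describe 21 separate RNAs. Snord14d had 702 ± 91 and 607 ± 36 CPM, Snord14c 481 ± 70 and 402 ± 22 CPM, and Snord14e 57.9 ± 6.7 and 62.8 ± 6.0 CPM in KO and WT.

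The features most like each member over the 6 libraries were different ones. For Snord15a, by Pearson r of log2 CPM, the leading ones were Gm22357 in Gas5 (r = 0.98), Gm23639 (0.96), Snora15 in Cct6a and Gm22303 in Rock2 (both 0.96). Each of these 4 was highest in WT replicate 1, as Snord15a was. Snora15, an H/ACA box snoRNA of 131 nt, had 0.227, 0.270 and 0.423 CPM in the KO and 2.21, 0.352 and 0.433 CPM in the WT libraries. Gm22357 differed far less, from 823 CPM in KO replicate 1 to 1169 CPM in WT replicate 1, so a like pattern did not mean a like size.

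For Snord15b the 5 were small nuclear RNA features of 116 to 191 nt: Gm25360 (r = 0.97), Gm24525 (0.94), Gm25939, Gm23472 and Gm23287 (0.89 each). Gm25360, Gm25939 and Gm23472 have the same length and lie near each other on chromosome 1, so their counts may not be independent. All 5 were lowest in KO replicate 2, as Snord15b was. Gm25360 had 183, 84.3 and 183 CPM in the KO and 130.6, 169 and 183 CPM in the WT libraries. These likenesses describe 6 libraries that also share depth and preparation.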

How the data were processed

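Small RNA libraries from 3 KO and 3 WT samples, grouped by their titles, were analysed from the deposited read counts per non-coding RNA feature, which the authors list only where at least 1 read was found. The tools named are Trimmomatic 0.38 and Bowtie2 2.3.4.1, with the build GRCm38, per the submitters' processing notes. How the reads were counted, with which strand setting and treatment of several matches, is not stated in these sources. Per the labels' protocols, PCR products of snoRNA size were cut from a gel, which sets which RNA lengths are seen.

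Absent features were set to 0, and 1822 of 1823 features matched GENCODE M21 by position. Second symbols came from RefSeq where both overlapped by at least 80%. CPM is the count scaled by the library total. The counts were fitted with edgeR 4.0.16 (R 4.3.3; quasi-likelihood test, TMM, default filter with minimum count 10 and minimum total count 15, KO against WT, two-sided, Benjamini-Hochberg over 624 features, threshold 0.05), after tests on simulated data. The approximate SE is the size of the fitted log2 difference over the root of its F statistic. Log2 CPM used a prior count of 2. Alternatives included DESeq2 1.42.0. Alignment used Biopython 1.88 and blastn 2.17.0. Every 2 replicates of a genotype differed beyond sampling noise (chi-square per degree of freedom 530 to 3308).

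The members, the lists and the naming rule were chosen with earlier results of these data known. The rule took both members, the 5 features most like each by Pearson r, the 3 next lowest abundant snoRNAs, and the 3 most abundant of each list; 2 features that this rule takes are not reported here.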

Additional observations from a re-analysis of the deposited data

How the results depend on the processing

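Snord15a was lower in KO under every alternative run. It was chosen for that direction, and every KO library lay below every WT library in CPM. Leaving out 1 library could therefore not reverse the direction, and nothing is read from its stability. The amount rested on WT replicate 1: with any 1 library left out its log2 fold change ranged from -2.18 to -0.89, the latter without WT replicate 1. That of Snord15b ranged from -0.02 to 0.20, that of the members summed from -0.17 to 0.10, and the KO minus WT difference of the log2 ratio from -2.06 to -0.88. Factors from snoRNAs of 120 to 180 nt gave 0.40 for Snord15b and 0.31 for the sum. In the main fit the estimate largest against its SE was not that of Snord15a but that of DQ267100 in Rian, at -5.50 (SE 0.58). The number of features called, 1 in the main test, was 13 with no filter, where 1823 features were tested, and 0 to 1 with 1 library left out. In a fit with a replicate block it fell to 0, and the log2 fold changes were -1.57 for Snord15a, -0.01 for Snord15b and -0.11 for the sum. The labels do not say that the numbers pair libraries: deviations of same-numbered libraries correlated at -0.13, 0.40 and -0.36, and not every library correlated best with its own number. None of the 4 lists had a call under any alternative. The other same-host pairs with as large a change in ratio numbered 0 with all libraries and without KO replicate 2, and 1 without WT replicate 1, settings chosen after the data were seen. Counting error is small at these depths, with at least 1428 reads per member and library, so the 3 libraries per genotype limit the precision.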
